A study of Mus musculus with 6 samples.

Results

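The comparison set dorsomorphin added to BMP2 against BMP2 alone in primary cardiomyocytes of newborn wild-type mice. It rests on 4 of the study's 6 libraries, 2 labelled BMP2 and 2 labelled BMP2+DM, chosen by their treatment labels, and all genes were tested in it. The other 2 libraries are of cells given phosphate-buffered saline (PBS). They entered the fit through the shared estimate of spread, and their levels are given beside the others as a description. All cells came from wild-type hearts, and polyadenylated RNA was sequenced. The study gives dorsomorphin as an inhibitor of the BMP2 receptor, added to see how much of the BMP2 response runs through SMAD signalling. All dorsomorphin here was given with BMP2 (no group had the compound alone), so what it does in the absence of added BMP2 cannot be told apart from what it does to the BMP2 response. The sources used here give no dose, no duration and no origin of the replicates, and p-values then measure only the spread between these libraries, which may be technical.

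Bone morphogenetic proteins are secreted dimers that bring type I and type II receptor kinases together. The type II receptor phosphorylates the type I receptor, which phosphorylates SMAD1, SMAD5 and SMAD9, and these enter the nucleus with SMAD4. Among the genes they are known to switch on are the Id genes, whose products block basic helix-loop-helix factors, and Smad6 and Smad7, whose products shut the pathway down again. Dorsomorphin is a small molecule that occupies the kinase pocket of type I BMP receptors. It was first described as inhibiting the energy-sensing kinase AMPK (AMP-activated protein kinase) and is known to act on other kinases too, the VEGF receptor KDR among them. In the heart, BMP signals are known for their part in the atrioventricular canal and the cushions that become valves.

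The libraries held between 10106667 and 14366042 gene counts. Levels are in CPM, a gene's count divided by the normalised library size and scaled to a fixed total, and each difference is a log2 fold change, BMP2+DM minus BMP2, with its standard error. The ribosomal-repeat models Gm42418 and AY036118 made up 1.31% of the counts of PBS 1 and 2.10% of those of BMP2 1, against 0.0702% to 0.0928% in the other 4 libraries. The summed level of 8 cardiomyocyte markers was 29622 and 29338 CPM with PBS, 22542 and 22436 with BMP2 and 25043 and 25449.5 with BMP2+DM, so these defining genes were abundant in every library. The summed level of 14 fibroblast markers was 13230.4 and 14088 CPM with PBS, 14197 and 14395 with BMP2 and 12446 and 12958 with BMP2+DM, so matrix-producing cells were present too. Erythroid markers did not pass 1.21 CPM in any library. In bulk RNA of this kind, fewer cells of a type and less RNA per cell cannot be told apart.

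With dorsomorphin, 616 of 14378 tested genes rose and 639 fell at an adjusted p under 0.05 (edgeR quasi-likelihood test, Benjamini-Hochberg). These are 4.28% and 4.44% of the genes tested, 8.73% together, and they are the background for the counts of gene groups that follow. For every called gene whose levels are given, both BMP2+DM libraries lay on the same side of both BMP2 libraries. For the 15 largest rises and 15 largest falls named below this was a condition of their selection, so it adds nothing to their calls. The median log2 fold change of all tested genes was 0.00035. Most changes were moderate: the median called gene moved by 0.50 upwards or −0.49 downwards, and 90 rises and 128 falls were of 2-fold or more. Protein-coding genes made up 589 of the rises and 606 of the falls, and 23 and 31 were long noncoding RNAs. Both libraries of one treatment lay above both of the other for 7229 genes (50.3%), so a gap between groups is by itself common. Without BMP2 1, 314 genes were higher and 356 lower, and without BMP2 2 the counts were 328 and 393. Without BMP2+DM 2, 406 were lower. A total of 199 rises and 223 falls kept their call in all 6 fits that left out 1 library, and 135 and 168 kept it with PBS 1 and BMP2 1 both left out, which leaves BMP2 with 1 library whose spread is assumed to be that of the other groups.

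**Figure D1:**
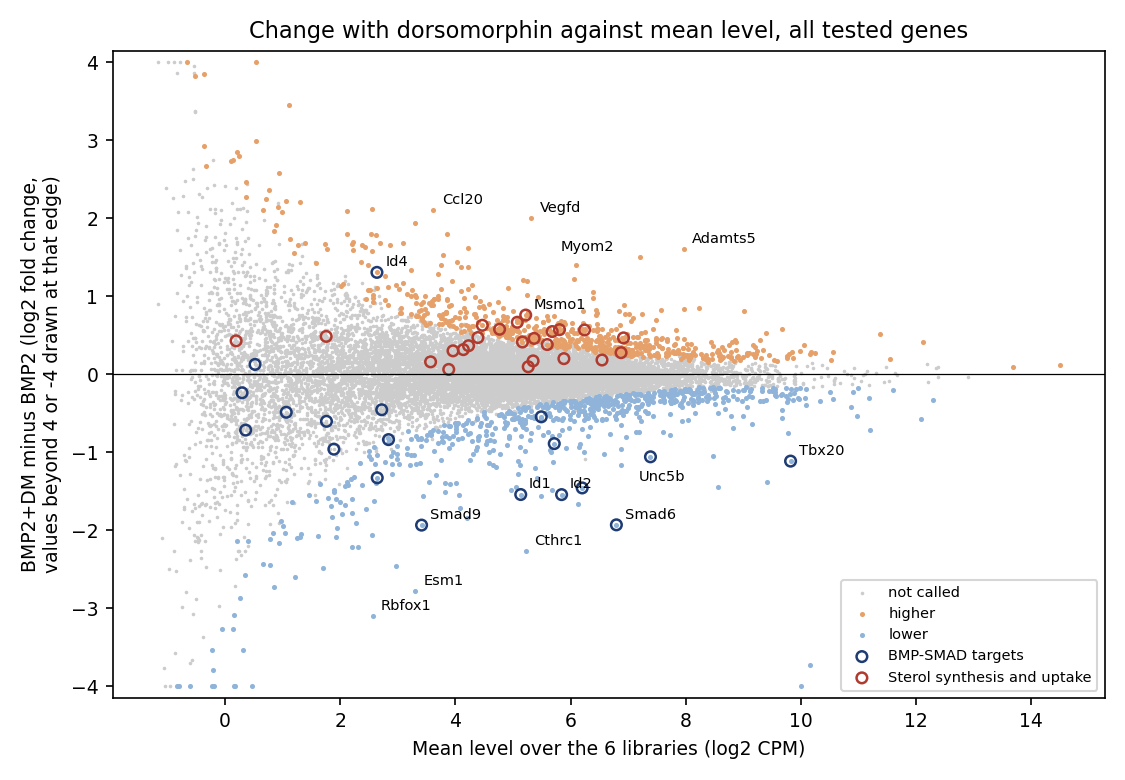
Log2 fold change (BMP2+DM minus BMP2) against mean level (log2 CPM over the 6 libraries) for all 14378 tested genes. Orange points rose and blue points fell at adjusted p under 0.05, rings mark BMP-SMAD targets and sterol genes, and values beyond 4 or −4 are drawn at that edge. Most ringed BMP-SMAD targets lie below the line and all ringed sterol genes above it. The 2 blue points near −4 at a high mean level are the ribosomal-repeat models, which were high in BMP2 1.

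Direct targets of BMP-SMAD signalling had the largest share of falls of the gene lists described here. Of 19 tested (of 22 listed), 11 fell and 1 rose, with a median log2 fold change of −0.89, against 4.44% falling and a median of 0.00035 over all genes. Of the falls, 9 kept their call in all 6 fits without 1 library and 8 without PBS 1 and BMP2 1. The promoters of 3 falling members are shown, since 11 targets fell and a GC-rich element, GGCGCC, is a known binding motif of SMAD1 and SMAD5. Each is the 250 bases before the RefSeq start (GRCm38.p6), written 5′ to 3′ on the gene's strand, with any GGCGCC in capitals. Smad9 lies at chr3:54755332-54755581 (plus strand), Smad6 at chr9:64022060-64022309 (minus strand) and Tbx20 at chr9:24774304-24774553 (minus strand).
Smad9: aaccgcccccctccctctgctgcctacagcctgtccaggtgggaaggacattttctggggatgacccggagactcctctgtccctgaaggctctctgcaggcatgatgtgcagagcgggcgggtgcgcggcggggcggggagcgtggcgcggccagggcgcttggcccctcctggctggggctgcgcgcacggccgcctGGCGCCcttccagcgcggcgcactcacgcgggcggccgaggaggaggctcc
Smad6: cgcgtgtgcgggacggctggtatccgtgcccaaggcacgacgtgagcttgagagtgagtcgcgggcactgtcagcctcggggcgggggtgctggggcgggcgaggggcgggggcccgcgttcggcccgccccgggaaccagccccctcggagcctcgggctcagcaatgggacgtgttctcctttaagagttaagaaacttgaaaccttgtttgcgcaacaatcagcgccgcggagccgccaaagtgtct
Tbx20: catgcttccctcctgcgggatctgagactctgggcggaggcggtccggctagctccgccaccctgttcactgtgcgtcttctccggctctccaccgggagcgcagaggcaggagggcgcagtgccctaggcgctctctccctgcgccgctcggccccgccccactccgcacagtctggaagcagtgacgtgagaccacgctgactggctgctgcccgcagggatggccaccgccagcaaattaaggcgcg
The element starts 51 bases before the Smad9 start and is not in the windows of Smad6 or Tbx20. It was found in 4 of 12 target promoters with a RefSeq entry whose start could be used (Id2, Id4, Smad9 and Gata3), or 33.3%. Of the promoters of all tested genes 16.9% held it, as did 16.7% of those of genes that fell and 14.1% of those of genes that rose, on either strand (the motif is its own reverse complement). Among the 4 targets with a match, Id2 and Smad9 fell, Id4 rose and Gata3 had no call. The RefSeq starts used for Id2 and Gata3 lie 1048 and 11434 bases from the gene's start in GENCODE. A match describes letters, not binding.

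The inhibitory SMAD genes gave some of the clearest differences. Smad6 (chromosome 9, 63953076 to 64022059, minus strand, mm10), which encodes an inhibitor of type I BMP receptors, was at 171 and 201 CPM with BMP2 and 44.8 and 52.6 CPM with BMP2+DM, with 141 and 163 CPM for PBS. The BMP2+DM libraries were the lowest of the 6 (−1.93 ± 0.10, adjusted p = 1.05e-09). Smad7, an inhibitor of both BMP and TGF-beta receptors, was at 104 and 103 CPM with BMP2 and 39.5 and 35.7 CPM with BMP2+DM, a change of −1.46 ± 0.098 (adjusted p = 2.42e-08), with 96.6 and 108 CPM for PBS. Smad9, which encodes a receptor-activated SMAD and is itself switched on by BMP, was at 19.9 and 18.3 CPM with BMP2 and 4.94 and 5.05 CPM with BMP2+DM, or −1.93 ± 0.20 (adjusted p = 5.28e-06), with 12.1 and 11.7 CPM for PBS. For all 3 genes both BMP2+DM libraries lay below both BMP2 and both PBS libraries.

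The Id genes did not move as one. Id1 (chromosome 2, 152736251 to 152737410, plus strand) was at 46.6 and 49.7 CPM with BMP2 and 16.9 and 16.1 CPM with BMP2+DM, with 55.6 and 51.4 CPM for PBS. Id2 was at 94.7 and 92.2 CPM with BMP2 and 35.4 and 28.7 CPM with BMP2+DM, with 64.7 and 61.4 CPM for PBS, and Id3 at 211 and 233 CPM with BMP2 and 107 and 107 CPM with BMP2+DM, with 199 and 197 CPM for PBS. In these 3 genes the BMP2+DM libraries were below the PBS libraries as well as the BMP2 libraries, with differences from BMP2 of −1.54 ± 0.13, −1.54 ± 0.11 and −1.06 ± 0.068 (adjusted p at most 3.56e-07). Id4 went the other way, at 2.91 and 4.58 CPM with BMP2 and 10.3 and 8.26 CPM with BMP2+DM, or 1.31 ± 0.29 (adjusted p = 0.00672), with 6.15 and 6.88 CPM for PBS. Its adjusted p was 0.0919 without BMP2 1 and 0.0535 without BMP2+DM 1, with log2 fold changes of 1.01 and 1.14.

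Several transcription factor genes among the targets were lower as well. Tbx20, a T-box factor of the developing heart, was at 1407 and 1435 CPM with BMP2 and 681 and 632 CPM with BMP2+DM, with 786 and 804 CPM for PBS (−1.11 ± 0.054, adjusted p = 4.68e-10). Atoh8, a basic helix-loop-helix factor, was at 65.1 and 63.9 CPM with BMP2 and 36.0 and 33.6 CPM with BMP2+DM, or −0.89 ± 0.11 (adjusted p = 2.35e-05), and its PBS libraries at 62.9 and 65.4 CPM. Gata2, a GATA factor of blood and vessel cells, was at 8.55 and 7.54 CPM with BMP2 and 3.001 and 3.40 CPM with BMP2+DM, a change of −1.33 ± 0.27 (adjusted p = 0.00428), with 7.79 and 9.49 CPM for PBS. For Atoh8 and Gata2 the BMP2 and PBS libraries were close to each other and both BMP2+DM libraries were below all 4. The T-box gene Tbx3 was at 9.73 and 8.31 CPM with BMP2 and 5.13 and 4.96 CPM with BMP2+DM (−0.84 ± 0.25, adjusted p = 0.0436), a call that was lost when any 1 of the 6 libraries was left out (adjusted p from 0.0599 to 0.228). Bambi, which encodes a receptor-like protein without a kinase that dampens BMP signals, was at 59.3 and 59.2 CPM with BMP2 and 44.0 and 37.2 CPM with BMP2+DM (−0.55 ± 0.12, adjusted p = 0.00760). Its adjusted p was 0.0545 without BMP2 1, 0.0519 without BMP2 2 and 0.0881 without BMP2+DM 2. With PBS 1 and BMP2 1 left out, Gata2 (−1.23, 0.132), Tbx3 (−0.72, 0.325), Bambi (−0.55, 0.142) and Id4 (1.01, 0.197) kept their direction but not their call (log2 fold change and adjusted p in brackets). The 7 tested targets without a call (Msx1, Msx2, Hey1, Tbx2, Nog, Zfp423 and Gata3) did not pass 8.55 CPM in any library.

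**Figure D2:**
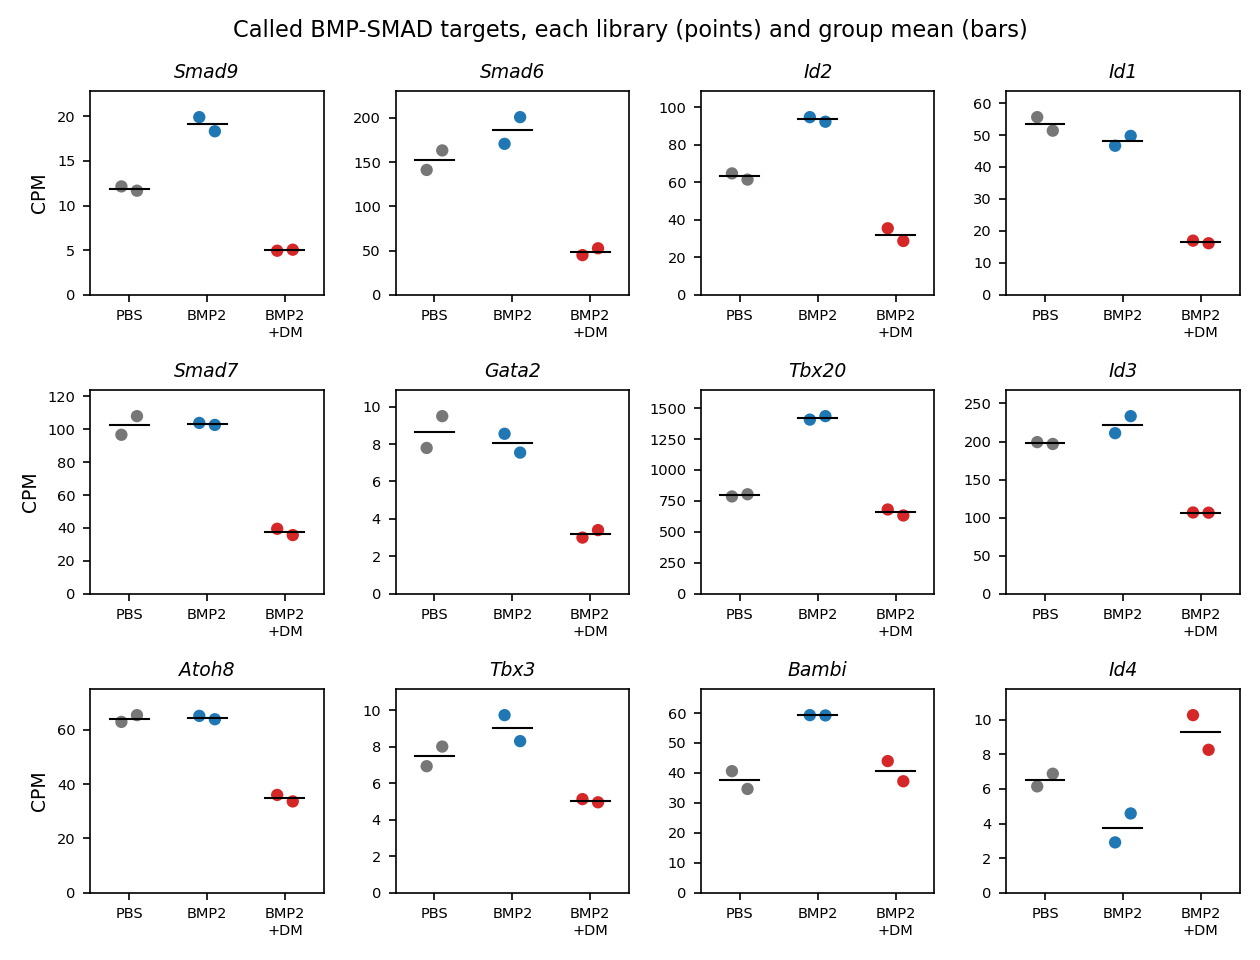
CPM of the 12 called BMP-SMAD targets in each library, with PBS in grey, BMP2 in blue and BMP2+DM in red, bars at the group means and a linear axis from 0 in each panel. In 11 panels both red points lie below both blue points, and in the Id4 panel both lie above them. Of the genes with PBS levels given in the text, Smad6, Smad7, Smad9, Id1, Id2, Id3, Tbx20, Atoh8 and Gata2 also have red points below the grey ones.

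Fewer calls were made among ligand and receptor genes. Of 9 tested ligand genes 1, Bmp4, passed the test (2 rose without BMP2 2, and 1 fell without BMP2+DM 2). It was at 17.9 and 19.95 CPM with BMP2 and 31.6 and 36.5 CPM with BMP2+DM and 37.9 and 33.3 CPM for PBS. Bmp4, a ligand of the same receptors as BMP2, was thus higher with dorsomorphin (0.85 ± 0.14, adjusted p = 9.00e-04), with both BMP2+DM libraries above both BMP2 libraries. The transcript of Bmp2 itself did not pass the test (−0.81 ± 0.34, adjusted p = 0.173). Of 13 receptor genes, 2 rose and 2 fell. Endoglin (Eng), a co-receptor for BMP9 and TGF-beta in vessels, fell from 265 and 259.6 CPM to 182 and 211 CPM (−0.42 ± 0.066, adjusted p = 4.48e-04). The type I receptor gene Acvr1 was lower (−0.42 ± 0.11, adjusted p = 0.0290) and the type I receptor Acvrl1 and TGF-beta type II receptor Tgfbr2 were higher (0.42 ± 0.12 and 0.39 ± 0.11). Acvr1 lost its call without any 1 of BMP2 1, BMP2 2, BMP2+DM 1 or BMP2+DM 2 (adjusted p up to 0.129), as did Tgfbr2 (up to 0.189), and Acvrl1 lost it in 3 of those 4 fits, all but the fit without BMP2+DM 1 (up to 0.214). The receptors Bmpr1a (0.028 ± 0.071) and Bmpr2 (−0.094 ± 0.099) did not pass, but Bmpr2 was called lower without BMP2+DM 1 (−0.31, adjusted p = 0.0453).

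Of 16 genes of SMAD proteins and their regulators (Smad6, Smad7 and Smad9, which fell, are counted with the targets above), 2 fell and 0 rose, and Smad1 (−0.042 ± 0.13), Smad5 (−0.26 ± 0.083) and Smad4 (−0.016 ± 0.090) were among those that did not pass (Smad5 was called lower with no filter on low counts, adjusted p = 0.0309). The 2 that fell are feedback genes of TGF-beta signalling. Skil, which encodes the SMAD co-repressor SnoN, was at 88.0 and 83.2 CPM with BMP2 and 50.2 and 42.2 CPM with BMP2+DM, or −0.89 ± 0.11 (adjusted p = 2.26e-05). Pmepa1, whose product binds receptor-activated SMADs, was at 113 and 104 CPM with BMP2 and 77.1 and 69.2 CPM with BMP2+DM, or −0.57 ± 0.087 (adjusted p = 2.99e-04). Secreted antagonists fell in 5 of 15 and rose in 1, and 3 of the falls kept their call in all fits without 1 library. Fst, which encodes the activin and BMP trap follistatin, was at 47.6 and 46.2 CPM with BMP2 and 27.5 and 23.03 CPM with BMP2+DM, against 10.8 and 9.49 CPM for PBS, so its BMP2+DM level (−0.89 ± 0.14) lay between those of the other treatments. Inhbb, the activin beta-B subunit, stood in the same order at 23.01 and 26.03 CPM with PBS and 57.2 and 57.1 CPM with BMP2 and 32.2 and 27.7 CPM with BMP2+DM (−0.93 ± 0.13). Crim1, a membrane protein that binds BMPs, was the rise, from 181 and 196 CPM to 264 and 258 CPM (0.47 ± 0.059, adjusted p = 4.65e-05). Without PBS 1 and BMP2 1, Bmp4 (0.77, 0.0901), Eng (−0.40, 0.0832) and Pmepa1 (−0.51, 0.0625) missed the threshold in the same direction.

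No transcript of AMPK, the energy-sensing kinase that dorsomorphin also inhibits, was called. Of 12 tested genes of its subunits and upstream kinases, 0 were called by edgeR in either direction (median 0.017; 1 rose without BMP2+DM 2). DESeq2 called 0 higher and 0 lower, and 2 had an unadjusted edgeR p under 0.05. The catalytic subunit genes Prkaa1 and Prkaa2 had log2 fold changes of −0.14 ± 0.14 and 0.21 ± 0.081, and Prkaa2 was called higher without BMP2+DM 2 (0.34, adjusted p = 0.0140) and with no filter on low counts (adjusted p = 0.0414). These are transcript levels and say nothing of kinase activity.

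Of the genes of the atrioventricular canal and cushion, 8 of 18 were lower and 1 higher (median −0.47), and 6 of the falls kept their call in every fit without 1 library, 4 without PBS 1 and BMP2 1. Several make or bind hyaluronan, the swelling sugar of cushion matrix. Has2, the main hyaluronan synthase of the embryonic heart, was at 5.73 and 9.64 CPM with BMP2 and 1.65 and 1.65 CPM with BMP2+DM, with 7.43 and 10.1 CPM for PBS. That is −2.21 ± 0.35 (adjusted p = 4.56e-04), from a low level in which the BMP2+DM libraries are well below all others. Hapln1, the link protein that ties hyaluronan to proteoglycans, was at 9.91 and 10.9 CPM with BMP2 and 2.90 and 1.55 CPM with BMP2+DM (−2.21 ± 0.32), with 3.93 and 3.66 CPM for PBS. Vcan, the proteoglycan versican, was at 245 and 238 CPM with BMP2 and 176 and 164 CPM with BMP2+DM (−0.51 ± 0.060, adjusted p = 2.21e-05). Cd44, the hyaluronan receptor, fell from 92.5 and 95.5 CPM to 65.3 and 60.1 CPM (−0.58 ± 0.086). Cemip, whose product is needed to break hyaluronan down, rose from 383 and 381 CPM to 659.9 and 676 CPM (0.81 ± 0.047, adjusted p = 4.03e-09). It belongs to the hyaluronan list and is not the 1 canal and cushion gene that rose, since the largest log2 fold change there was 0.33. Snai1 and Sox9, transcription factors of cushion mesenchyme, changed by −1.33 ± 0.19 and −0.70 ± 0.13, and without PBS 1 and BMP2 1 both kept the direction without a call, Snai1 (−1.41, 0.0529) and Sox9 (−0.63, 0.118). Over the hyaluronan list, 5 of 13 fell and 2 rose (higher count 1 without BMP2 1, BMP2 2 or BMP2+DM 2).

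Among genes with a mean of at least 2 log2 CPM over all 6 libraries, PBS included, the 15 largest falls ran from −3.10 ± 0.30 to −1.66 ± 0.10. Rbfox1, a splicing regulator of heart, muscle and brain (chromosome 16, 5885355 to 7411526, plus strand), was at 10.002 and 9.26 CPM with BMP2 and 0.871 and 1.36 CPM with BMP2+DM, with 15.4 and 17.5 CPM for PBS, and the BMP2+DM libraries were the only ones under 2 CPM. Esm1, an endothelial proteoglycan gene, was at 12.3 and 16.6 CPM with BMP2 and 2.52 and 1.65 CPM with BMP2+DM. Megf10, an engulfment receptor gene, was at 11.5 and 10.02 CPM with BMP2 and 1.94 and 1.94 CPM with BMP2+DM. With PBS they were at 30.1 and 29.4 CPM (Esm1) and 19.6 and 22.2 CPM (Megf10), above both other treatments. Cthrc1, a secreted collagen triple helix protein, was at 103 and 93.5 CPM with BMP2 and 19.6 and 21.2 CPM with BMP2+DM, with 25.1 and 26.8 CPM for PBS: the BMP2 libraries stood apart from both other treatments. Ndnf, a secreted neurotrophic and vascular factor, was also highest with BMP2, at 16.7 and 17.4 CPM with BMP2 and 5.62 and 2.53 CPM with BMP2+DM with 3.57 and 2.18 CPM for PBS. Hmga2, a chromatin protein of fetal and growing cells, was at 91.3 and 95.3 CPM with BMP2 and 31.9 and 27.2 CPM with BMP2+DM (adjusted p = 6.23e-09). Its PBS libraries, at 120 and 124 CPM, were also above both other treatments. The other falls of this size were Hapln1, Has2, Smad9, Smad6, Car8 (−1.84 ± 0.19), Cda (−1.77 ± 0.35), Serpini1 (−1.73 ± 0.29), Ptprn (−1.71 ± 0.19) and Rtp4. Rtp4, an interferon-induced gene (−1.68 ± 0.39), had an adjusted p of 0.109 without BMP2 2 and 0.0721 without BMP2+DM 1.

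The 15 largest rises ran from 2.12 ± 0.26 for Syt13, a synaptotagmin gene, to 1.66 ± 0.37 for Nckap5. Vegfd (chromosome X, 164373378 to 164402650, plus strand), a growth factor for blood and lymph vessels, was at 29.0 and 26.1 CPM with BMP2 and 104 and 117 CPM with BMP2+DM, with 21.9 and 19.2 CPM for PBS. Ccl20, a chemokine for CCR6-bearing cells, was at 6.82 and 6.49 CPM with BMP2 and 30.4 and 27.0 CPM with BMP2+DM. The myosin light chain kinase gene Mylk4 was at 6.46 and 6.59 CPM with BMP2 and 24.4 and 21.2 CPM with BMP2+DM, with 18.4 and 20.4 CPM for PBS, and Adgrg6, an adhesion receptor, at 3.73 and 4.39 CPM with BMP2 and 12.6 and 13.5 CPM with BMP2+DM with 11.1 and 10.3 for PBS. In Mylk4 and Adgrg6 the BMP2+DM libraries were thus close to PBS, while in Vegfd and Ccl20 they were above every other library. The other rises were Aldh3a1, Galnt16 (1.94 ± 0.22), Krt7, Vnn1, Scn7a (1.78 ± 0.26), Adcy1 (1.70 ± 0.32), Rassf4 (1.67 ± 0.33), Dpp4 (1.66 ± 0.25), Tspyl5 and Nckap5. Tspyl5 was unequal between the 2 BMP2+DM libraries (5.42 and 20.4 CPM, against 4.36 and 3.63 with BMP2), and its change of 1.69 ± 0.44 (log2) was 0.44 without BMP2+DM 2, with adjusted p of 0.0894 without BMP2 1, 0.138 without BMP2 2 and 0.603 without BMP2+DM 2. For Nckap5 the adjusted p was 0.110 without BMP2 1 and 0.208 without BMP2+DM 2. Among the 30 genes, Aldh3a1 (1.89, 0.0618), Krt7 (1.64, 0.0566), Vnn1 (1.61, 0.111), Adcy1 (1.88, 0.0545), Tspyl5 (1.83, 0.276), Rassf4 (1.74, 0.0951), Dpp4 (1.46, 0.0502), Nckap5 (1.31, 0.267), Cda (−1.67, 0.147), Serpini1 (−1.67, 0.0614) and Rtp4 (−1.97, 0.0597) had no call without PBS 1 and BMP2 1, where all kept their direction.

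**Figure D3:**
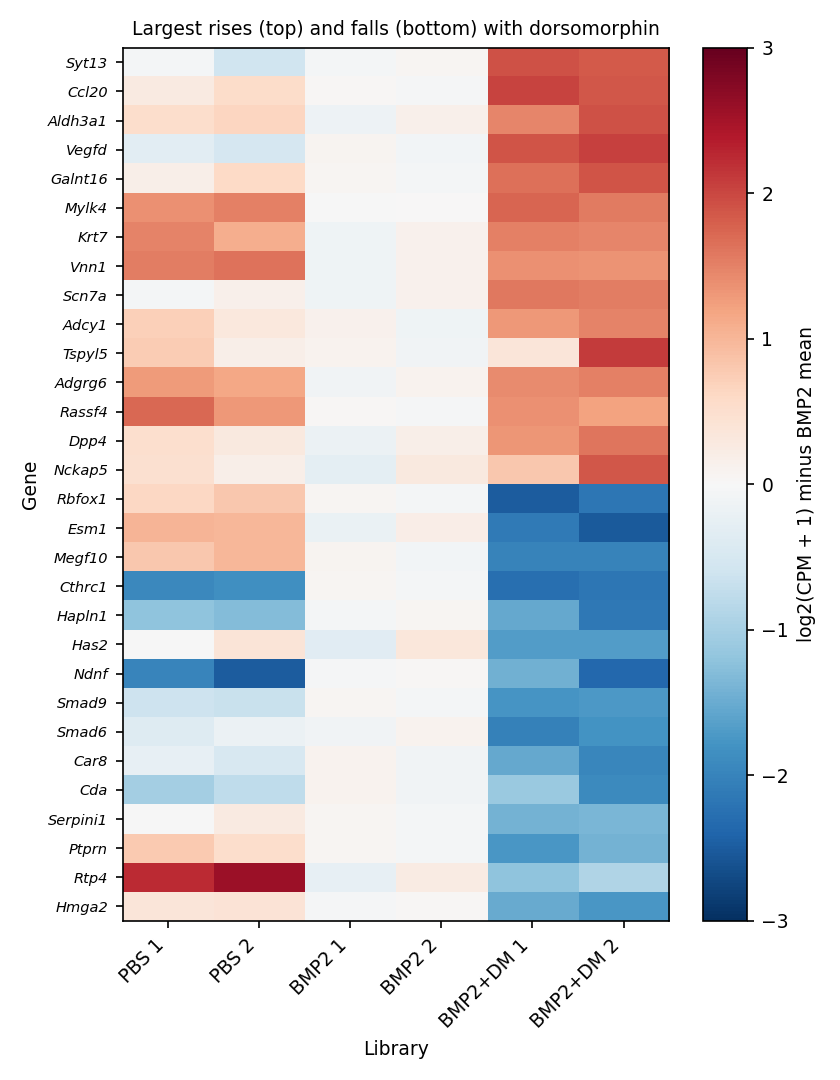
Level of the 15 largest rises (top) and 15 largest falls (bottom) in each of the 6 libraries, as log2(CPM + 1) minus the mean of the BMP2 libraries, red above and blue below it. The BMP2+DM columns are red for all 15 rises and blue for all 15 falls, which the rule that chose these genes requires. The PBS columns vary by gene: red for Mylk4 and Vnn1, blue for Cthrc1 and Ndnf.

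TGF-beta signalling, which runs through SMAD2 and SMAD3 downstream of other type I receptors and drives matrix genes in fibroblasts, gave 8 falls and 6 rises in 19 tested genes (median −0.030). Ltbp2 and Ltbp1, proteins of the latent TGF-beta binding family, were lower. Ltbp2 was at 31.7 and 30.6 CPM with BMP2 and 12.3 and 10.6 CPM with BMP2+DM (−1.45 ± 0.13) and Ltbp1 changed by −0.70 ± 0.093. Of the falls 6 kept their call in all fits without 1 library, and of the rises 1 (higher count 1 without BMP2 2 and 3 without BMP2 1, BMP2+DM 1 or BMP2+DM 2).

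Matrix genes split in direction. Of 22 matricellular and elastic fibre genes 8 fell and 4 rose, and all 12 kept their call in every fit without 1 library. Thbs1, a matricellular activator of latent TGF-beta, was at 2629.7 and 2584 CPM with BMP2 and 1593 and 1574 CPM with BMP2+DM (−0.72 ± 0.044), and Tnc, tenascin C, at 414 and 415 CPM with BMP2 and 194 and 206 CPM with BMP2+DM (−1.05 ± 0.057, adjusted p = 1.42e-09). Postn, periostin, was at 2708 and 2639.6 CPM with BMP2 and 1827 and 1858 CPM with BMP2+DM (−0.54 ± 0.051), with 1587 and 1729 CPM for PBS, and Fbln2, fibulin 2, changed by −0.76 ± 0.053. Collagens fell in 7 of 22 and rose in 5. The main fibrillar chains were opposed: Col1a1 was at 4813 and 4860.4 CPM with BMP2 and 3206 and 3275 CPM with BMP2+DM (−0.58 ± 0.040, adjusted p = 3.94e-08), and Col3a1 at 2585 and 2730.3 CPM with BMP2 and 3693 and 3939 CPM with BMP2+DM (0.52 ± 0.050, adjusted p = 2.15e-06). For Col3a1 the PBS libraries, at 1765 and 1901 CPM, were below both other treatments, so its BMP2+DM level is the farthest from PBS. The basement membrane collagen Col15a1 fell by more, at 51.2 and 57.2 CPM with BMP2 and 27.7 and 21.96 CPM with BMP2+DM (−1.13 ± 0.13), and Col6a3 changed by −0.73 ± 0.069. The count of collagens that rose was 2 without BMP2 2 or BMP2+DM 2 and 3 without BMP2 1 or BMP2+DM 1.

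Proteoglycans fell in 6 and rose in 5 of 17, including small leucine-rich members in opposite directions. Prelp was at 39.7 and 43.2 CPM with BMP2 and 101 and 118 CPM with BMP2+DM (1.40 ± 0.10, adjusted p = 6.34e-08), decorin (Dcn) changed by 0.39 ± 0.056 and biglycan (Bgn) by −0.42 ± 0.050. Matrix proteases and their inhibitors rose in 6 of 20 and fell in 2 (higher count 3 without BMP2 1 or BMP2 2). Adamts5, a protease that cuts versican and aggrecan (chromosome 16, 85856173 to 85901828, minus strand), was at 155 and 143 CPM with BMP2 and 466 and 439 CPM with BMP2+DM, with 227 and 239 CPM for PBS. It had the greatest rise of the list (1.60 ± 0.059, adjusted p = 8.29e-12), with both BMP2+DM libraries above all others. Adamts1, of the same family, was at 92.3 and 92.5 CPM with BMP2 and 155 and 159.9 CPM with BMP2+DM (0.77 ± 0.076). The metalloprotease inhibitors Timp1 and Timp2 parted: Timp1 fell from 135 and 145 CPM to 60.5 and 64.3 CPM (−1.17 ± 0.085), and Timp2 rose from 362 and 371 CPM to 492 and 482 CPM (0.41 ± 0.044).

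**Figure D4:**
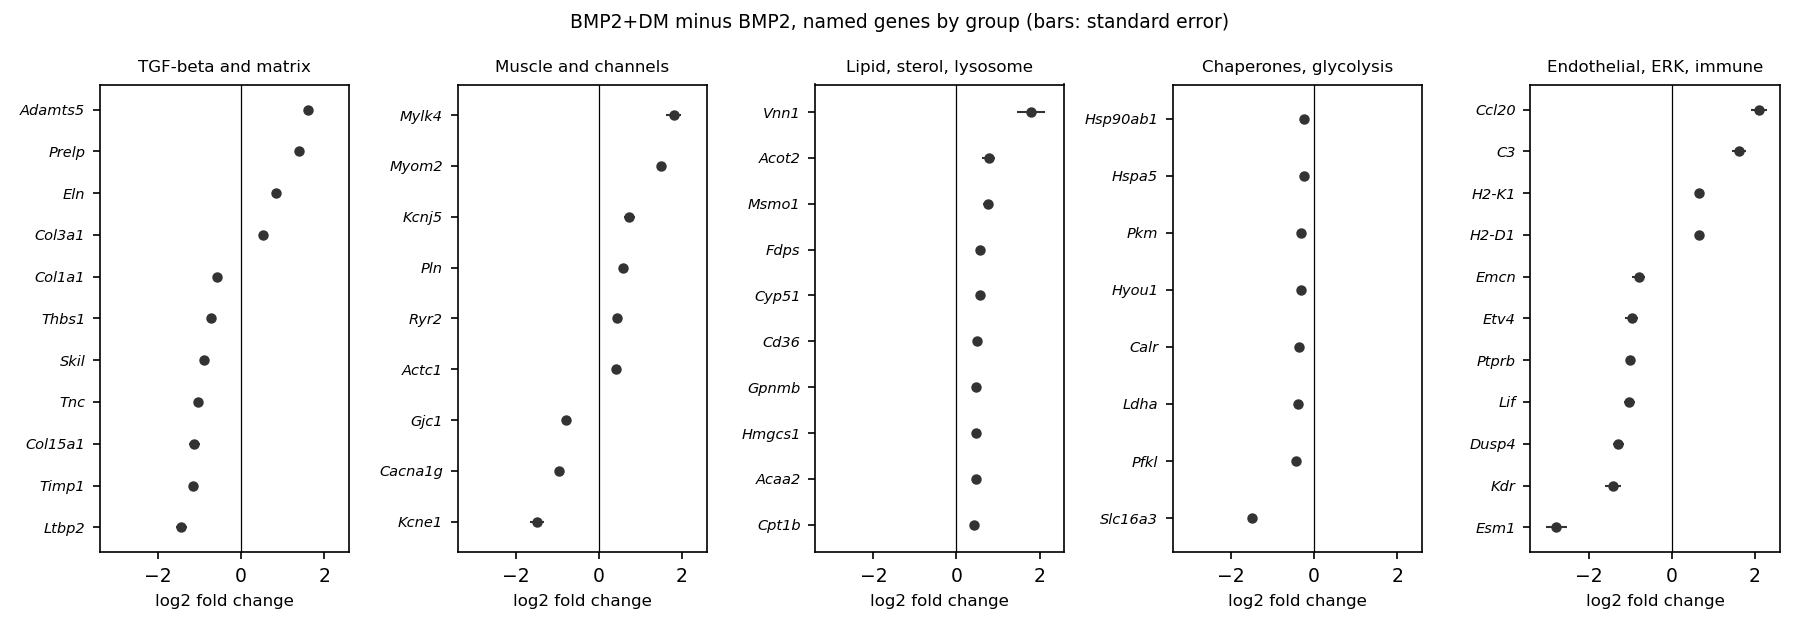
Log2 fold change (BMP2+DM minus BMP2) with its standard error for named genes in 5 groups. Bars shorter than the point are hidden by it. Of the genes drawn, those of matrix lie on both sides of 0, those of sterol, fatty acid and lysosome to the right, and chaperones and glycolytic genes to the left. These sides follow from which genes were chosen for drawing. Left out are the falls Fasn and Cidea, the 2 heat shock genes that rose and the 3 glycolysis and hypoxia genes that rose.

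Genes of the contractile apparatus rose or did not pass, and none fell. Of 17 thick filament and M-band genes 6 rose (median 0.088), and of 23 thin filament and Z-disc genes 6 rose (median 0.047). Myom2, an M-band protein that links myosin filaments, was at 79.2 and 92.8 CPM with BMP2 and 239 and 249.9 CPM with BMP2+DM, with 155 and 146 CPM for PBS. Its difference was 1.51 ± 0.078 (adjusted p = 9.91e-10). Myom1 changed by 0.31 ± 0.053 and the kinase gene Mylk3 by 0.32 ± 0.056. Actc1, cardiac alpha-actin, was at 3162 and 3161 CPM with BMP2 and 4156 and 4249 CPM with BMP2+DM, with 6796 and 6729.7 CPM for PBS, so its BMP2+DM level lay between the other 2. Synpo2l, a Z-disc protein, changed by 0.39 ± 0.057. Of the thick filament rises 5 kept their call in all fits without 1 library, and of the thin filament rises 2 (count 2 without BMP2 2 or BMP2+DM 2). Over the fetal and stress genes 3 of 15 rose and 0 fell: the natriuretic peptides Nppa, at 1093 and 1064 CPM with BMP2 and 1321 and 1303 CPM with BMP2+DM (0.28 ± 0.052), and Nppb, at 70.1 and 73.1 CPM with BMP2 and 111 and 134 CPM with BMP2+DM (0.77 ± 0.086), and the LIM protein Fhl1 (0.31 ± 0.045). All 3 remained below PBS, where Nppb was at 255 and 247 CPM. For Nppa, 61.5% of exonic bases overlap the opposite-strand model Gm13054, and their reads cannot be told apart without strand. In the fit without PBS 1 and BMP2 1, Mylk3 (0.32, 0.0953) and Synpo2l (0.33, 0.0618) had no call.

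Calcium handling rose in 7 of 19 genes and fell in 2 (median 0.19; the lower count was 1 in each of the 6 fits without 1 library). Ryr2, the calcium release channel, was at 339 and 325 CPM with BMP2 and 445 and 458 CPM with BMP2+DM (0.44 ± 0.047), and its store partner Casq2 at 509 and 512 CPM with BMP2 and 688 and 696 CPM with BMP2+DM (0.44 ± 0.049). Pln, phospholamban, which restrains the calcium pump, was at 648 and 641 CPM with BMP2 and 982 and 945 CPM with BMP2+DM (0.58 ± 0.051, adjusted p = 7.91e-07), with 64.7% of its exonic bases under the opposite-strand model Gm47644. The fall that held in all of them was Cacna1g, the T-type calcium channel of pacemaker and fetal muscle, at 68.1 and 74.0 CPM with BMP2 and 39.4 and 34.2 CPM with BMP2+DM (−0.95 ± 0.11, adjusted p = 1.87e-05). Some genes known from conduction tissue were lower too. Gjc1, the connexin of slow-conducting nodes, was at 108 and 98.8 CPM with BMP2 and 59.2 and 60.2 CPM with BMP2+DM (−0.80 ± 0.090), and Kcne1, the potassium channel subunit, at 45.6 and 49.3 CPM with BMP2 and 13.4 and 20.4 CPM with BMP2+DM (−1.49 ± 0.16, adjusted p = 8.34e-06). In these 3 genes both BMP2+DM libraries lay below both BMP2 and both PBS libraries. Kcnj5, a subunit of the acetylcholine-gated channel of nodes and atria, rose instead (0.73 ± 0.14), as did Gja1, the connexin of working muscle (0.27 ± 0.052). Potassium channel genes rose in 2 and fell in 1 of 14 (higher count 1 without BMP2 2; lower count 2 without BMP2+DM 2), and sodium channel, pacemaker and connexin genes rose in 3 and fell in 3 of 10. When PBS 1 and BMP2 1 were left out, Kcnj5 (0.79, 0.0728) missed the threshold.

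Of 22 cardiac transcription factor genes 4 fell and 1 rose (median −0.15), but the lower count was 1 without BMP2 1, BMP2 2, BMP2+DM 1 or BMP2+DM 2 and 2 without PBS 1 or PBS 2. The higher count was 0 without BMP2 2 or BMP2+DM 1 and 2 without BMP2+DM 2. Hand2, a factor of the right ventricle and outflow tract, kept its call in all 6 of those fits. It was at 104 and 106 CPM with BMP2 and 69.7 and 74.2 CPM with BMP2+DM (−0.55 ± 0.085, adjusted p = 3.60e-04), with 79.3 and 80.4 CPM for PBS, and 19.6% of its exonic bases overlap the opposite-strand RNA Hand2os1. Of 16 splicing regulators 3 fell and 2 rose. Beside Rbfox1, Ptbp1, a repressor of muscle and neuronal exons, changed by −0.35 ± 0.049 (20.7% of its exonic bases overlap another model), and Rbm24, a muscle splicing factor, rose from 90.1 and 88.0 CPM to 135 and 132 CPM (0.59 ± 0.077, adjusted p = 7.69e-05). The higher count of splicing regulators was 1 without BMP2 1 and the lower count 5 without BMP2+DM 1.

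Sterol synthesis and uptake genes, which the factor SREBP2 switches on together when cell sterol is low, rose in 12 of 24 and fell in 0, and all 24 log2 fold changes were above 0 (median 0.42). The rises were all under 2-fold, and the count was 7 without BMP2 1, BMP2 2 or BMP2+DM 2, 6 kept their call in all 6 such fits and 3 without PBS 1 and BMP2 1. The promoter of Hmgcs1, an early enzyme of the pathway, is shown because it was the 1 of 16 with a usable RefSeq entry that held a sterol response element (TCACNCCAC, either strand, in capitals), against 1.01% of the promoters of all tested genes. It is the 250 bases before the start, at chr13:119690101-119690350 (plus strand, GRCm38.p6), and the element starts 137 bases before the start.
Hmgcs1: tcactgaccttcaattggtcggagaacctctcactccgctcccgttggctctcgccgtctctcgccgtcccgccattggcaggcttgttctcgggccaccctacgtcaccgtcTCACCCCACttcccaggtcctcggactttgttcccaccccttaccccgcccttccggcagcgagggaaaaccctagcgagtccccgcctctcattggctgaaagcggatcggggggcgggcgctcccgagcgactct
Hmgcs1 was at 113 and 107 CPM with BMP2 and 154 and 149 CPM with BMP2+DM (0.47 ± 0.075, adjusted p = 5.50e-04), with 110.1 and 102 CPM for PBS, and 12.1% of its exonic bases lie under the opposite-strand model Gm48342. Cyp51, which removes a methyl group from lanosterol, was at 68.3 and 66.6 CPM with BMP2 and 100.1 and 99.99 CPM with BMP2+DM (0.57 ± 0.087). Msmo1, the methylsterol oxidase that follows it, was at 28.6 and 28.9 CPM with BMP2 and 48.4 and 49.1 CPM with BMP2+DM (0.76 ± 0.12, adjusted p = 3.85e-04), and Fdps, farnesyl diphosphate synthase, changed by 0.57 ± 0.10 with 26.7% of its exonic bases shared with the same-strand model Gm43738. For each of these 4 genes both BMP2+DM libraries were above both PBS libraries as well. With PBS 1 and BMP2 1 left out, Fdps (0.62, 0.0623) missed the threshold.

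Fatty acid uptake and oxidation genes rose in 10 of 24 with 0 falls (median 0.23), and all 24 differences were above 0. The count was 6 without BMP2 2, and 6 rises kept their call in all fits without 1 library. Cd36, the fatty acid transporter, was at 119 and 120.1 CPM with BMP2 and 167 and 167 CPM with BMP2+DM (0.48 ± 0.070), and Cpt1b, the muscle enzyme that takes fatty acids into mitochondria, at 147 and 154 CPM with BMP2 and 207 and 199 CPM with BMP2+DM (0.43 ± 0.065). Cpt1b shares 81.4% of its exonic bases with the same-strand model Gm44502. The oxidation enzymes Acaa2 and Acadl changed by 0.46 ± 0.067 and 0.31 ± 0.050. Fasn, which builds fatty acids, moved the other way, from 264 and 289.7 CPM to 208 and 223 CPM (−0.36 ± 0.063, adjusted p = 0.00109). Targets of PPAR and ERR receptors rose in 6 and fell in 1 of 21 (higher count 2 without BMP2 1), with the pantetheinase gene Vnn1 at 1.45 and 1.91 CPM with BMP2 and 5.91 and 5.83 CPM with BMP2+DM and the thioesterase gene Acot2 at 15.7 and 16.9 CPM with BMP2 and 29.4 and 26.5 CPM with BMP2+DM. Cidea, a lipid droplet protein of brown fat, fell from 18.9 and 23.6 CPM to 8.42 and 8.94 CPM (−1.29 ± 0.19). Of 26 nuclear-encoded oxidative phosphorylation genes 0 were called by edgeR (median 0.088; 1 rose without PBS 1 or PBS 2, and 2 with library size alone as scaling). DESeq2 called 0 higher and 0 lower, and 7 had an unadjusted edgeR p under 0.05. Cpt1b (0.40, 0.0541), Vnn1 (1.61, 0.111) and Acot2 (0.73, 0.123) had no call without PBS 1 and BMP2 1.

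Lysosomal and autophagy genes rose in 9 of 23 and fell in 0 (median 0.19; count 5 without BMP2 1). Gpnmb, a lysosomal glycoprotein, was at 120.3 and 104 CPM with BMP2 and 147 and 164 CPM with BMP2+DM (0.47 ± 0.084) and the membrane protein Lamp1 at 575 and 569 CPM with BMP2 and 691 and 681 CPM with BMP2+DM (0.26 ± 0.048). Glycolysis and hypoxia genes fell in 8 of 26 and rose in 3 (median −0.13; higher count 0 without BMP2 1 and 1 without BMP2 2 or BMP2+DM 2). The lactate exporter Slc16a3 had the greatest fall of those named, at 69.3 and 68.2 CPM with BMP2 and 22.8 and 26.3 CPM with BMP2+DM, with 82.5 and 72.6 CPM for PBS (−1.49 ± 0.12, adjusted p = 1.76e-07). The enzymes Ldha, Pkm and Pfkl, which make lactate, pyruvate and fructose bisphosphate, changed by −0.40 ± 0.052, −0.32 ± 0.052 and −0.44 ± 0.072, and 15.3% of the exonic bases of Pkm overlap another model. Ldha was at 1283 and 1292 CPM with BMP2 and 951 and 1002 CPM with BMP2+DM, and its PBS libraries, at 1034 and 1053 CPM, were near those with dorsomorphin.

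**Figure D5:**
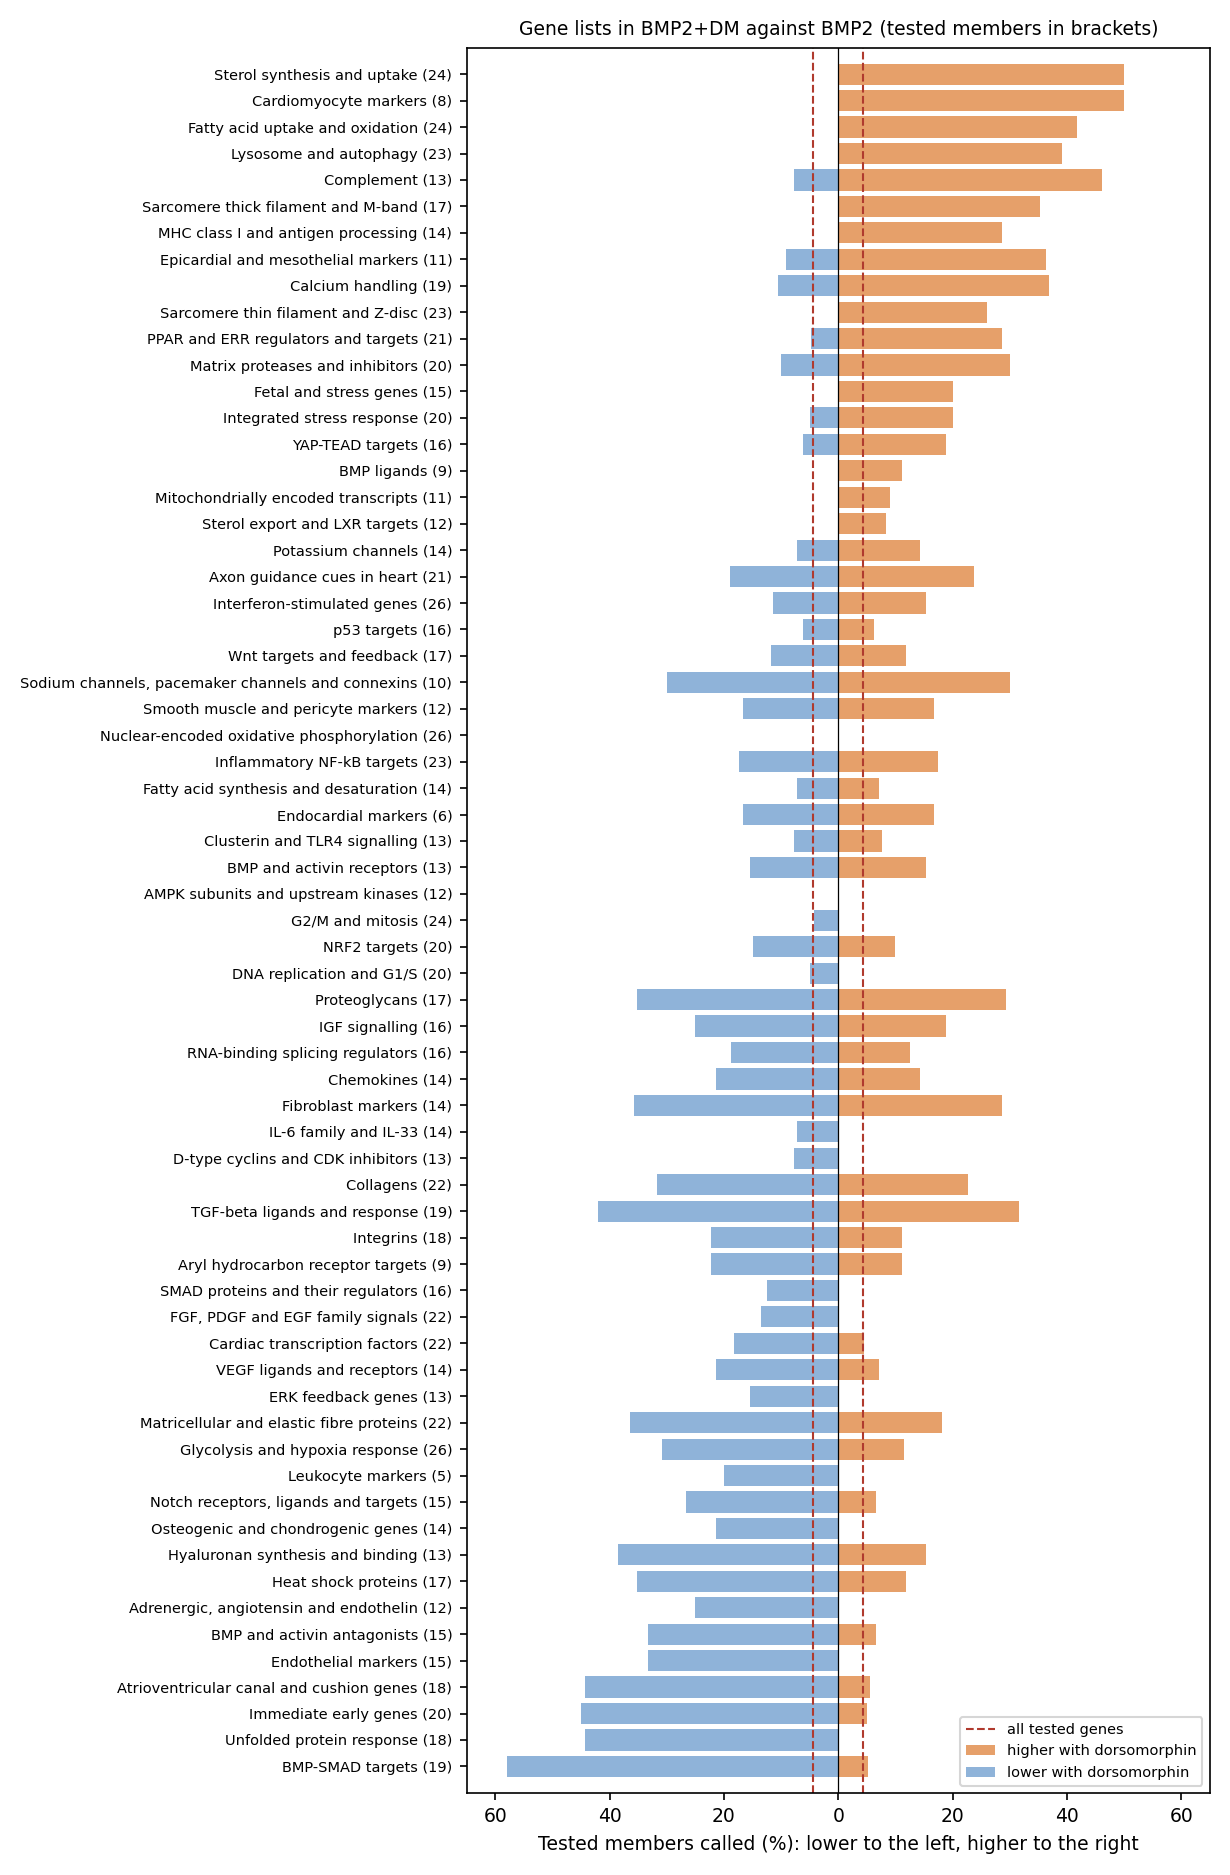
Share of each list's tested members that rose (orange, to the right) or fell (blue, to the left) with dorsomorphin, in %, with the number tested in brackets and lists of 5 or more tested members ordered by the difference of the shares. Dashed lines mark the shares of all tested genes, 4.28% and 4.44%. BMP-SMAD targets are at the bottom, with 57.9% falling, and sterol genes and cardiomyocyte markers, with 50% rising in each, share the top.

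Several chaperone genes of the endoplasmic reticulum were lower. Of 18 genes of the unfolded protein response 8 fell and 0 rose (median −0.22; count 4 without BMP2 1 and 5 without BMP2 2, and 2 without PBS 1 and BMP2 1). Calr, calreticulin, was at 931 and 882 CPM with BMP2 and 701 and 711 CPM with BMP2+DM (−0.36 ± 0.052, adjusted p = 1.88e-04), and Hspa5, the chaperone BiP, at 946 and 943 CPM with BMP2 and 794 and 791 CPM with BMP2+DM (−0.25 ± 0.050, adjusted p = 0.00305). The oxygen-regulated chaperone Hyou1 changed by −0.32 ± 0.066. Cytosolic heat shock genes fell in 6 of 17 and rose in 2 (lower count 3 without BMP2 1 or BMP2+DM 2; higher count 1 without BMP2 1, BMP2 2 or BMP2+DM 2). Hsp90ab1 was at 2151 and 2109 CPM with BMP2 and 1826 and 1803 CPM with BMP2+DM (−0.23 ± 0.046) and the small heat shock gene Hspb8 at 151 and 143 CPM with BMP2 and 104 and 98.2 CPM with BMP2+DM (−0.54 ± 0.077). All of these were differences of less than 2-fold. The integrated stress response, which the factor ATF4 runs, moved upwards in 4 of 20 and downwards in 1 (higher count 2 without BMP2 1). Psat1, an enzyme of serine synthesis, was at 87.8 and 87.8 CPM with BMP2 and 159 and 148 CPM with BMP2+DM (0.81 ± 0.075, adjusted p = 1.52e-06), and the factor gene Atf5 at 134 and 147 CPM with BMP2 and 201 and 209.7 CPM with BMP2+DM (0.55 ± 0.072). Ddit4, an inhibitor of the kinase mTOR, fell from 69.5 and 70.0 CPM to 39.6 and 41.0 CPM (−0.79 ± 0.11). Without PBS 1 and BMP2 1 the gene Hyou1 (−0.32, 0.113) missed the threshold.

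Genes that answer foreign compounds moved in both directions. Of 9 targets of the aryl hydrocarbon receptor 1 rose and 2 fell (lower count 1 without BMP2 1, BMP2 2 or BMP2+DM 2). Aldh3a1, an aldehyde dehydrogenase, was at 1.82 and 2.48 CPM with BMP2 and 7.65 and 10.8 CPM with BMP2+DM (2.10 ± 0.33), and Cyp1b1, a cytochrome P450, at 292 and 289 CPM with BMP2 and 223 and 219 CPM with BMP2+DM (−0.39 ± 0.054), so these receptor targets were opposed. NRF2 targets rose in 2 and fell in 3 of 20 (higher count 1 without BMP2 2 or BMP2+DM 2). The glutathione transferase genes Gstm1 and Gsta4 went apart, Gstm1 at 72.1 and 69.4 CPM with BMP2 and 123 and 117 CPM with BMP2+DM (0.76 ± 0.083, adjusted p = 9.75e-06) and Gsta4 at 22.2 and 20.4 CPM with BMP2 and 11.0 and 11.9 CPM with BMP2+DM (−0.90 ± 0.18). Gstm1 belongs to a family of near-identical copies, and how the counting treated reads shared by copies is not given. Without PBS 1 and BMP2 1 no call was left for Aldh3a1 (1.89, 0.0618) and Gsta4 (−0.84, 0.101).

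Some genes that report receptor tyrosine kinase and ERK signalling were lower. Dusp4, an ERK phosphatase that ERK induces, was at 45.9 and 47.1 CPM with BMP2 and 21.4 and 16.8 CPM with BMP2+DM, with 42.5 and 46.5 CPM for PBS (−1.28 ± 0.14, adjusted p = 7.90e-06). Etv4, an ETS factor downstream of FGF, was at 24.6 and 27.0 CPM with BMP2 and 11.9 and 14.5 CPM with BMP2+DM (−0.97 ± 0.16). They were the 2 falls of 13 ERK feedback genes. Of 20 immediate early genes 9 fell and 1 rose, but the lower count was 1 without BMP2+DM 1, 2 without BMP2 2, 3 without BMP2 1 and 4 without BMP2+DM 2, and 1, Junb, kept its call throughout. Junb, a subunit of AP-1, was at 106 and 109.6 CPM with BMP2 and 67.6 and 76.3 CPM with BMP2+DM (−0.58 ± 0.086, adjusted p = 2.26e-04). The AP-1 element TGACTCA was found on either strand in 5.64% of the promoters of genes that fell, 3.09% of those that rose and 2.99% of all tested. Among growth factor genes, 3 of 22 of the FGF, PDGF and EGF families fell and 0 rose. Hbegf, an EGF receptor ligand, was at 49.2 and 39.0 CPM with BMP2 and 24.3 and 20.5 CPM with BMP2+DM (−0.98 ± 0.14), and the receptor gene Fgfr2 at 47.2 and 46.4 CPM with BMP2 and 24.4 and 27.7 CPM with BMP2+DM (−0.85 ± 0.13, adjusted p = 3.45e-04). Insulin-like growth factor binding proteins were opposed: Igfbp2 rose from 79.0 and 84.3 CPM to 144 and 146 CPM (0.83 ± 0.081), and Igfbp5 fell from 44.6 and 49.0 CPM to 23.4 and 20.3 CPM (−1.10 ± 0.14), with 6.003 and 6.88 CPM for PBS. Without PBS 1 and BMP2 1, Hbegf (−0.80, 0.0563) missed the threshold.

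Wnt genes gave 2 rises and 2 falls in 17 (lower count 1 without PBS 1, PBS 2 or BMP2+DM 2). Nkd1, a feedback inhibitor of Wnt signalling, was at 14.9 and 19.95 CPM with BMP2 and 46.1 and 44.3 CPM with BMP2+DM, with 4.65 and 7.92 CPM for PBS (1.38 ± 0.19, adjusted p = 9.99e-05). It rose beyond its BMP2 level, which was itself above PBS. Sfrp2, a secreted Wnt binder, was at 54.3 and 50.5 CPM with BMP2 and 121 and 123 CPM with BMP2+DM (1.22 ± 0.091, adjusted p = 9.18e-08), with 16.1% of its exonic bases overlapped by another model. Axin2, the common Wnt reporter gene, did not pass (−0.12 ± 0.16, adjusted p = 0.733). Dkk2, a secreted Wnt inhibitor, had 33 counts in the BMP2 group and 0 in the BMP2+DM group, at least 10.6-fold lower with the floor set at 3 counts for a whole group, which covers counting error only. The other called genes with 0 in one treatment were Serpinb2, a plasminogen activator inhibitor, with 71 counts against 0 (at least 22.7-fold lower), and Ms4a7, a macrophage gene, with 0 against 17 (at least 5.90-fold higher). These 3 were singled out after their values were seen. Ms4a7 lost its call when any 1 library was left out (adjusted p from 0.0589 to 0.144), and with PBS 1 and BMP2 1 both left out the adjusted p was 0.118 for Dkk2 and 0.230 for Ms4a7. Of 15 Notch genes 4 fell and 1 rose, and 0 kept their call in all fits without 1 library (lower count 0 without BMP2 1 or BMP2+DM 1 and 1 without BMP2 2 or BMP2+DM 2).

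Guidance and vessel genes followed no single direction. Unc5b, a netrin receptor of growing vessels (chromosome 10, 60762593 to 60831581, minus strand), was at 527 and 523 CPM with BMP2 and 195 and 189.8 CPM with BMP2+DM, with 523 and 545 CPM for PBS (−1.45 ± 0.047, adjusted p = 1.94e-12). Both BMP2+DM libraries were the lowest of the 6, and the other 4 were close to each other. The semaphorin gene Sema3c, a cue for outflow tract cells, rose from 42.6 and 40.3 CPM to 66.9 and 70.2 CPM (0.72 ± 0.11). Over 21 guidance genes 5 rose and 4 fell (higher count 1 without BMP2 1 and 3 without BMP2 2 or BMP2+DM 2; lower count 2 without BMP2 2 or BMP2+DM 1). Of 14 VEGF and angiopoietin genes 3 fell and 1, Vegfd, rose. Among the falls 1, Kdr, kept its call in all 6 fits without 1 library. Kdr, the main VEGF receptor and a kinase dorsomorphin is known to act on, was at 28.0 and 19.5 CPM with BMP2 and 8.13 and 9.72 CPM with BMP2+DM, with 15.2 and 15.5 CPM for PBS (−1.41 ± 0.20, adjusted p = 1.66e-04). Ece1, the enzyme that releases endothelin, changed by −0.47 ± 0.073.

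Immune genes rose more often than they fell in complement and antigen presentation. Complement genes rose in 6 of 13 and fell in 1 (median 0.48; higher count 3 without BMP2 1). C3, the central complement protein, was at 8.37 and 10.1 CPM with BMP2 and 26.4 and 30.4 CPM with BMP2+DM, with 25.5 and 23.2 CPM for PBS (1.62 ± 0.17, adjusted p = 5.55e-06). Its BMP2+DM libraries were above both PBS libraries. Serping1, the C1 inhibitor, changed by 0.49 ± 0.091. The summed level of the 15 listed complement genes was near equal in the libraries compared, at 491 and 527 CPM with BMP2 and 503 and 519 with BMP2+DM. With PBS it was 744 and 732 CPM. The fall was in Clu, the chaperone clusterin named in the study's title, at 266 and 281 CPM with BMP2 and 211 and 216 CPM with BMP2+DM, with 461 and 443 CPM for PBS (−0.36 ± 0.053, adjusted p = 2.26e-04), so dorsomorphin took it farther from PBS. Of 13 genes of clusterin and TLR4 signalling 1 fell and 1 rose, and Tlr4 did not pass (0.19 ± 0.16, adjusted p = 0.568). MHC class I and antigen processing genes rose in 4 of 14 and fell in 0. H2-K1 was at 40.8 and 38.1 CPM with BMP2 and 67.6 and 57.5 CPM with BMP2+DM (0.66 ± 0.11) and H2-D1 at 53.1 and 55.3 CPM with BMP2 and 86.7 and 84.4 CPM with BMP2+DM (0.66 ± 0.090), with 90.3 and 87.7 CPM for PBS. They are members of one gene family, and how the counting treated reads shared by copies is not given.

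Interferon-stimulated genes, by contrast, gave 4 rises and 3 falls in 26 (median −0.076), and 1, Bst2 (0.62 ± 0.12), kept its call in every fit without 1 library. The higher count was 2 without BMP2 2 or BMP2+DM 1 and the lower count 1 without PBS 1, PBS 2, BMP2 1, BMP2 2, BMP2+DM 1 or BMP2+DM 2. Of 23 inflammatory NF-kB targets 4 rose and 4 fell. Saa3, an acute-phase protein, was at 6.73 and 9.36 CPM with BMP2 and 19.3 and 23.3 CPM with BMP2+DM (1.41 ± 0.21), and Ptgs2, the prostaglandin synthase COX-2, at 22.7 and 18.5 CPM with BMP2 and 6.29 and 9.43 CPM with BMP2+DM (−1.39 ± 0.20). Lif, a cytokine of the IL-6 family that acts on cardiomyocytes, was at 45.7 and 44.2 CPM with BMP2 and 22.6 and 21.7 CPM with BMP2+DM, with 19.9 and 20.1 CPM for PBS (−1.02 ± 0.13, adjusted p = 5.33e-05). Among chemokines, Cxcl5 rose from 57.5 and 75.6 CPM to 121 and 98.7 CPM (0.72 ± 0.12), still below the PBS libraries at 313 and 378 CPM. Cxcl12, which holds CXCR4-bearing cells, fell from 150.5 and 158 CPM to 106 and 96.6 CPM (−0.60 ± 0.072). Among the immune genes without PBS 1 and BMP2 1, Serping1 (0.41, 0.137), H2-K1 (0.71, 0.0551), Bst2 (0.66, 0.0781), Ptgs2 (−1.24, 0.0556) and Cxcl5 (0.54, 0.0834) kept their direction and had no call. Of 12 listed leukocyte markers 5 had enough counts to be tested, and 1, Csf1r, fell (count 0 without BMP2 1, BMP2 2, BMP2+DM 1 or BMP2+DM 2). The summed level of the 12 was 37.5 and 38.7 CPM with PBS, 32.6 and 37.9 with BMP2 and 27.7 and 27.8 with BMP2+DM, and the part of these cells in the immune results was not tested.

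Few proliferation genes were called. Of 20 DNA replication genes and 24 G2/M genes 1 and 1 fell and 0 rose (medians −0.080 and −0.098; both counts were 0 without BMP2 1 or BMP2+DM 2, and that of G2/M genes also without BMP2 2 or BMP2+DM 1), shares near the background of all genes. The proliferation marker Mki67 did not pass (0.033 ± 0.059, adjusted p = 0.803).

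Genes that mark the other cell types of such cultures also differed. Endothelial markers fell in 5 of 15 and rose in 0 (median −0.42; lower count 3 without BMP2+DM 1), and 2 kept their call without PBS 1 and BMP2 1. Their summed level was 447 and 454 CPM with PBS, 411 and 409 with BMP2 and 265 and 282 with BMP2+DM. Both BMP2+DM libraries were below the other 4. Beside Kdr, Ptprb, an endothelial phosphatase, was at 83.4 and 94.2 CPM with BMP2 and 45.3 and 43.9 CPM with BMP2+DM (−0.99 ± 0.095), and Emcn, endomucin, at 30.2 and 28.1 CPM with BMP2 and 15.8 and 17.8 CPM with BMP2+DM (−0.80 ± 0.15). Esm1, Unc5b, Eng and Kdr, all known from endothelium, fell from BMP2 to BMP2+DM as this summed level did, and Kdr is itself among the 15 markers. From PBS to BMP2 they went different ways. Esm1 was lower with BMP2 than with PBS (30.1 and 29.4 CPM), Kdr was higher and Unc5b was near equal. The part of the summed level in these falls was not tested. Epicardial and mesothelial markers rose in 4 and fell in 1 of 11, and their summed level was 226 and 232 CPM with PBS, 167 and 165 with BMP2 and 193 and 195 with BMP2+DM. Msln, mesothelin, was at 6.55 and 10.3 CPM with BMP2 and 23.6 and 21.96 CPM with BMP2+DM (1.44 ± 0.20), the keratin gene Krt7 at 2.27 and 2.86 CPM with BMP2 and 9.20 and 8.75 CPM with BMP2+DM (1.80 ± 0.29), and Lrrn4 at 47.9 and 41.8 CPM with BMP2 and 21.98 and 19.4 CPM with BMP2+DM (−1.12 ± 0.13), so markers of this lineage were opposed. Fibroblast markers rose in 4 and fell in 5 of 14, Col3a1 and Dcn among the rises and Col1a1 and Postn among the falls. The summed level of smooth muscle and pericyte markers was 4352 and 4382 CPM with PBS, 2648 and 2683 with BMP2 and 2660.0 and 2808 with BMP2+DM, near equal in the 4 libraries compared. No call was left for Emcn (−0.74, 0.0830) and Krt7 (1.64, 0.0566) when PBS 1 and BMP2 1 were left out.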

How the data were processed

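The authors deposited raw read counts per gene symbol, 1 table per library, for 6 libraries. The tools named in the submitters' processing notes are STAR and HTSeq, with FastQC, Trimmomatic and DESeq2, and the build is mm10. Versions, annotation and strand setting are not given there, so reads of overlapping genes on opposite strands cannot be told apart. The 5 summary lines of each table, 53.8% to 54.2% of its total, were left out. Most of this was the line for reads without a feature, 49.7% to 50.1% of the total, and the cause of that share was not tested. Of 32245 symbols, 11888 had no count and 5979 did not pass filterByExpr (minimum count 10, minimum total 15), which left 14378. Positions come from GENCODE vM21, in which 31372 symbols matched 1 gene, and promoters from RefSeq (GRCm38.p6).

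All 6 libraries were fitted with group means in edgeR 4.0.16 (R 4.3.3, TMM factors, quasi-likelihood F test, 3 residual degrees of freedom). P-values were adjusted by Benjamini-Hochberg over all genes tested, with a threshold of 0.05. Standard errors were taken from the fold change and F (absolute log2 value over the root of F), and CPM from TMM-scaled library sizes. The common biological coefficient of variation was 0.0872, and the 2 libraries of a group differed by more than sampling noise (chi-square per degree of freedom 3.58 to 4.27, ribosomal-repeat models left out). When tested on simulated data for this comparison (14378 genes), the fit found 97.3% of genes changed 2-fold upwards, 88% of those set to 0.5, 66.7% of those set to 1.5 and 54.7% of those set to 0.667, and 21 of 481 calls (4.37%) fell on unchanged genes.

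Named are the 15 largest rises and 15 largest falls among non-overlapping genes whose mean log2 CPM was 2 or more (predicted genes left out), up to 4 called members of each list with the smallest p, all BMP pathway and AMPK genes, and a panel of 20 genes. The comparison, lists and alternatives were chosen with earlier results of these data known, and lists are described by counts without a test of their own. The 17 alternatives covered scaling, filter, test (DESeq2 1.42.0 among them), threshold, block and left-out libraries. A few of the genes this rule names are not reported here.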

Additional observations from a re-analysis of the deposited data

How the results depend on the processing

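In the comparison of BMP2+DM with BMP2, 616 genes were higher and 639 lower. The counts were moved most by leaving out libraries or raising the threshold: over the 6 fits without 1 library, 314 to 528 were higher and 356 to 553 lower. With PBS 1 and BMP2 1 left out 137 were higher and 176 lower, a fit with fewer samples in which BMP2 is 1 library. Against a minimum fold of 1.5 the counts were 38 and 60, and at an adjusted p of 0.01 they were 317 and 332. Under RLE or upper-quartile factors, library size alone, no filter, the 4 compared libraries alone, ribosomal and mitochondrial genes left out, or DESeq2, both counts stayed within 1.5 times (466 to 793 higher and 506 to 818 lower). A fit with the replicate number as a block called 601 higher and 625 lower. Same-numbered libraries did not deviate together from their group means (correlations 0.0081, −0.0227 and −0.0378 between groups, ribosomal-repeat models left out). The ribosomal-repeat models themselves were high in PBS 1 (1.31%) and BMP2 1 (2.10%) but not in BMP2+DM 1 (0.0753%). Whether libraries of one number shared a culture or batch cannot be told from these correlations, and the labels do not say. No called gene named in the text changed direction under the alternatives in which it was tested (all 17, except Ms4a7, which was not tested with the 4 libraries alone). The genes named without a call that changed sign, and for which the cause was not tested, were Bmpr1a (−0.054 to 0.11 over the fits without 1 library), Bmpr2 (−0.31 to 0.096), Mki67 (−0.046 to 0.11, and −0.0104 without PBS 1 and BMP2 1), Prkaa1 (−0.43 to 0.11), Smad1 (−0.12 to 0.043, and 0.0428 without PBS 1 and BMP2 1), Smad4 (−0.081 to 0.047, and 0.0113 with library size alone) and Tlr4 (−0.016 to 0.39). With 2 libraries a group, changes of 1.5-fold were often missed in simulated data, and smaller ones were not simulated, so a gene without a call may still differ.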

Other observations

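Adhesion and mechanical response genes also differed with dorsomorphin. Of 18 integrin genes 4 fell and 2 rose (lower count 2 without BMP2 1). Itga8, a fibronectin and nephronectin receptor chain, was at 102 and 102 CPM with BMP2 and 160.0 and 144 CPM with BMP2+DM (0.57 ± 0.11), with 19.2 and 27.8 CPM for PBS, so its BMP2+DM libraries were the farthest from PBS. Itgb5, a vitronectin receptor chain, was at 189 and 189 CPM with BMP2 and 146 and 151 CPM with BMP2+DM (−0.35 ± 0.060), and Itga3, a laminin receptor chain, at 33.0 and 33.9 CPM with BMP2 and 50.8 and 49.7 CPM with BMP2+DM (0.59 ± 0.11). Both of these had no call with PBS 1 and BMP2 1 left out, at Itgb5 (−0.35, 0.0751) and Itga3 (0.57, 0.103) (log2 fold change and adjusted p in brackets). YAP-TEAD targets rose in 3 and fell in 1 of 16 (higher count 1 without BMP2 1). The fall was Ccn2, the matricellular protein CTGF and a standard target of that pathway, at 765 and 761 CPM with BMP2 and 521 and 513 CPM with BMP2+DM (−0.56 ± 0.051, adjusted p = 1.05e-06), with 1363 and 1390.3 CPM for PBS and 23.2% of its exonic bases under the model Gm15270.

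Osteogenic and chondrogenic genes, for which BMPs are named, fell in 3 of 14 (median −0.48), and Sox9, a chondrocyte and cushion transcription factor, was the 1 that kept its call in all fits without 1 library. The lower count was 1 without BMP2+DM 1. Of 12 adrenergic, angiotensin and endothelin genes 3 fell (count 1 without BMP2 1). Other lists had 1 call or 2. They were p53 targets (1 higher and 1 lower of 16; higher count 0 without BMP2 1, BMP2 2 or BMP2+DM 1, lower count 0 without BMP2+DM 2), D-type cyclins and their inhibitors (1 lower of 13; 0 without BMP2 2), mitochondrially encoded transcripts (1 higher of 11; 0 without BMP2 2 or BMP2+DM 1 and 2 without BMP2+DM 2) and sterol export genes (1 higher of 12; 0 without PBS 1, PBS 2, BMP2 1, BMP2 2, BMP2+DM 1 or BMP2+DM 2). Schwann cell and neuronal markers had a summed level of 35.5 and 44.4 CPM with PBS, 43.9 and 47.2 with BMP2 and 63.0 and 55.0 with BMP2+DM, with Th at 0 in every library.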
